A study of Mus musculus with 12 samples.

Results

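Kupffer cells are the resident macrophages of the liver, and 7 genes that mark them were followed here in whole livers of ob/ob mice. The genes were Clec4f, Vsig4, Timd4, Cd5l, Marco, Folr2 and Cd163, taken from a list of resident Kupffer cell genes and found by symbol among the 56205 Ensembl genes of the count table. All 7 had a row, and all 7 passed the filter on low counts, which kept 13416 genes.

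The study asked how collagen genes are regulated in liver fibrosis, and this series is its ethionine model. Both groups were male ob/ob mice (B6.Cg-Lepob/J), young adults that lack leptin and become obese, and both ate standard chow. The OBOB_FLO group (FLO, 6 mice) had chow alone, and the OBOB_Fibrotic group (Fibrotic, 6 mice) also had DL-ethionine, an ethyl analogue of methionine that is toxic to hepatocytes. Fibrotic is the label of that group, and fibrosis of these livers was not assessed here. The study describes ethionine-treated ob/ob mice as a model with microvesicular steatosis and inflammation. The labels give ethionine at 0.165% in the drinking water for 2 weeks and, in another field, at 0.15% by injection, and the study's methods give a shorter time. Each library held the poly(A) RNA of 1 liver, so a different number of Kupffer cells and a different amount of RNA per cell cannot be told apart, in either direction. There was no comparison with lean mice.

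Kupffer cells are seeded before birth and renew themselves in the liver sinusoids, where they take up dead cells, bacteria and worn-out blood cells. Macrophage colony stimulating factor keeps them alive, and signals from endothelial and stellate cells switch on the genes that set them apart from other macrophages. When Kupffer cells are lost, monocytes enter the liver and take on part of the same gene program. Clec4f, a C-type lectin, is the marker most specific to mouse Kupffer cells. Timd4, a phosphatidylserine receptor, is high in the embryo-derived cells and slow to appear on monocyte-derived ones.

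The 6 Fibrotic libraries held 17815568 to 20352675 counts and the 6 FLO libraries 18275320 to 24814263, and libraries of one group differed by more than sampling noise. The mitochondrial share of counts was 4.93% to 7.88% in the Fibrotic group and 7.30% to 10.2% in the FLO group. FLO replicate 3 held 3773 counts of Xist and 4 of Ddx3y, where the other 11 libraries held 0 to 4 of Xist and 556 to 977 of Ddx3y. This goes against the male label, so the results for the 7 members are also given without this library where a call changes. For genes outside the 7, the text does not give the fit without this library on its own. Levels are CPM, counts scaled to a common library size after TMM normalization, a method that assumes most genes do not change. The edgeR quasi-likelihood test was used, and a gene was called where its adjusted p was at most 0.01 and its log2 fold change beyond 0.5 in either direction. These thresholds follow the study's methods.

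The genes lie on 6 chromosomes of GRCm38 (mm10), the build named in the submitters' processing notes, with spans from the GENCODE M21 annotation. Clec4f is at chr6:83644542-83656187 and Cd163 at chr6:124304656-124330527. Vsig4 is at chrX:96247203-96293438, Timd4 at chr11:46810800-46844332 and Cd5l at chr3:87357881-87371073. Marco is at chr1:120474538-120505024 and Folr2 at chr7:101839988-101857194. In the same annotation, exons of Gm10602 on the opposite strand cover 975 of the 1546 exonic bases of Folr2. Whether counting used strand is not given in the sources used here, so reads of the pair cannot be told apart, and Gm10602 itself held 6 to 31 counts per library. No other member shared exonic bases with another gene.

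The upstream sequences of 3 members are shown because they are the ones that hold GAGGAA, the core of the binding site of PU.1, the factor that macrophage genes depend on. Each is the 250 bases before the RefSeq start site on the strand of the gene (GRCm38.p6), with capitals for the motifs searched. Marco is at chr1:120505025-120505274 (minus strand), Cd5l at chr3:87357631-87357880 (plus strand) and Vsig4 at chrX:96293439-96293688 (minus strand).
Marco: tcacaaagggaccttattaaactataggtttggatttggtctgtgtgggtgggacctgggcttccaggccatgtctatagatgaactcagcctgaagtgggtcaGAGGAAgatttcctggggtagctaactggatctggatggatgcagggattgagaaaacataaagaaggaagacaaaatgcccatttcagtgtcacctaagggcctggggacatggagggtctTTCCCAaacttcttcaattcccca
Cd5l: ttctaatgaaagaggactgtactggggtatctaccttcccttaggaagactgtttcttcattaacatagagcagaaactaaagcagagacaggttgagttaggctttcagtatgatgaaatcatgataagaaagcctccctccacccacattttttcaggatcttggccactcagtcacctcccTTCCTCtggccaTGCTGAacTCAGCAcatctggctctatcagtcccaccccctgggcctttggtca
Vsig4: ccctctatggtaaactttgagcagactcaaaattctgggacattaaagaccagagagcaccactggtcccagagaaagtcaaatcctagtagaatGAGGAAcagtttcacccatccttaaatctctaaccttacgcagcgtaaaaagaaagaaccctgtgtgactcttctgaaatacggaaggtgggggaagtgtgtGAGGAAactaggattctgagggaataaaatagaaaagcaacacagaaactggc

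GAGGAA was searched on both strands in such windows, and 3 of 7 members held it against 23.3% of all 32851 promoters. In Vsig4 it starts 155 and 53 bases before the start site, in Marco 146 bases before it, and in Cd5l it lies on the other strand, as TTCCTC, 66 bases before it. TGCTGA, part of the site of Maf factors, was in 4 members (Clec4f, Timd4, Cd5l and Folr2) and in 16.1% of all promoters. AGGTCA, a site of nuclear receptors such as LXR alpha, was in 2 members (Clec4f and Timd4) and in 14.02% of promoters. TGGGAA, the core site of the Notch partner Rbpj, was in 2 members (Clec4f and Marco) and in 21.6% of promoters. The AGGTCA and TGGGAA matches of Clec4f touch the last 71 bases of its window, which GENCODE M21 places inside the gene. None of the searched motifs overlapped another in the 3 sequences shown. A match is a run of letters and not a measured binding site.

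To ask whether Kupffer cell identity genes changed with ethionine, each was compared between 6 Fibrotic and 6 FLO livers. Of the 7 genes, 5 were called higher in Fibrotic livers (Marco, Cd163, Cd5l, Vsig4 and Clec4f) and 0 lower, and Timd4 and Folr2 were not called. Of all tested genes, 15.9% were called higher and 14.0% lower, 29.9% in either direction. The median log2 fold change was 0.74 over the members and 0.03 over all tested genes. All 7 differences were positive, and for each gene all 6 Fibrotic libraries lay above the FLO median. Together they made up 0.0190% to 0.0438% of a Fibrotic library and 0.0127% to 0.0163% of a FLO library.

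**Figure D1:**
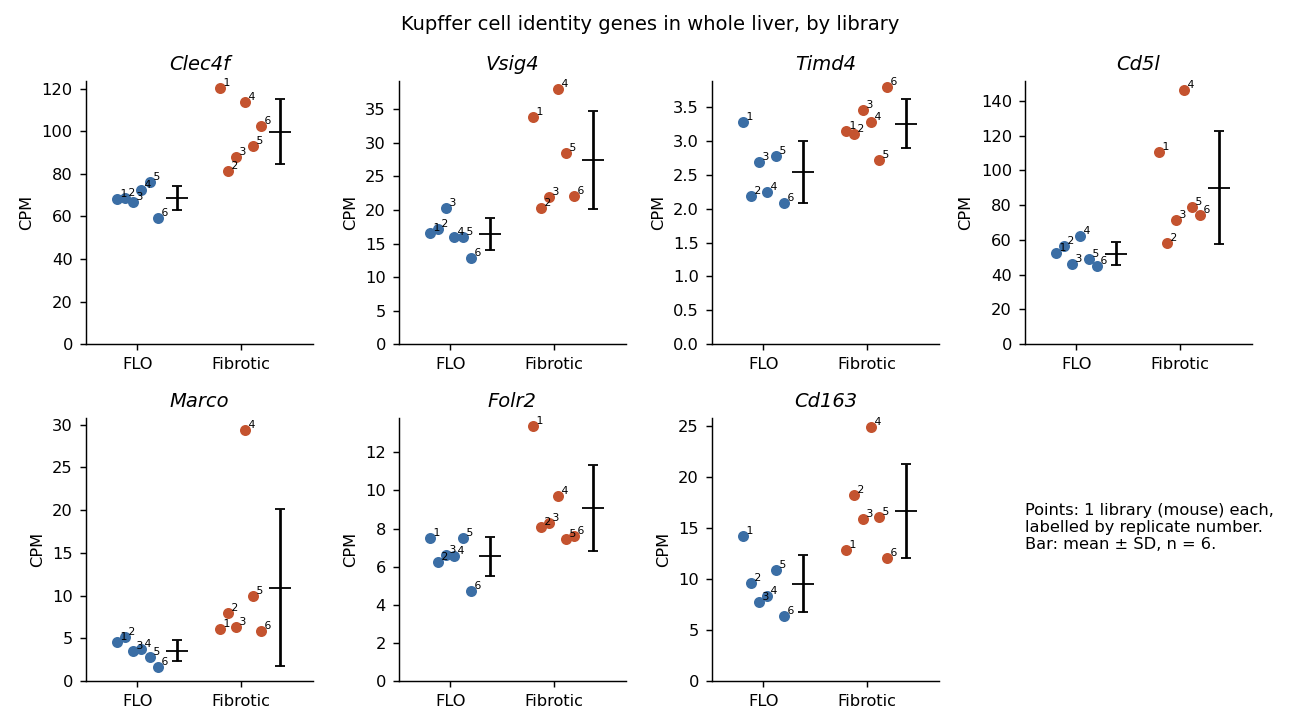
Level of each Kupffer cell identity gene (CPM, y axis from 0) in the 6 FLO and 6 Fibrotic libraries, 1 point per mouse with its replicate number, and bars for the mean ± SD (n = 6). The groups do not overlap for Clec4f and Marco, and Fibrotic replicate 4 stands far above the others for Marco, at 29.4 CPM.

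Among the receptors for sugars and particles, Clec4f binds galactose-bearing glycans and is the most specific of the 7. Fibrotic livers held 81.2 to 120.5 CPM of it (median 97.9), and FLO livers 59.2 to 76.2 CPM (median 68.4). Every Fibrotic library was above every FLO library. Mean levels were 99.8 ± 15.2 and 68.6 ± 5.74 CPM (SD, n = 6 each), and the log2 difference was 0.54 (SE 0.10, edgeR adjusted p = 0.000351). Because 0.54 is close to the fold threshold, the call on the Clec4f log2 fold change was lost without Fibrotic replicate 1 (0.48, adjusted p = 0.000775) and without FLO replicate 6 (0.50, adjusted p = 0.00112).

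Marco, a scavenger receptor for bacteria and particles, had the largest change of the 7. Fibrotic libraries ran from 5.87 to 29.4 CPM (median 7.13) and FLO libraries from 1.63 to 5.11 CPM (median 3.62). The groups did not overlap, but Fibrotic replicate 4 was almost 3 times as high as the next library, at 29.4 CPM against 9.97 CPM in Fibrotic replicate 5. Mean levels were 10.9 ± 9.20 and 3.55 ± 1.25 CPM (SD, n = 6 each), and the log2 difference was 1.63 (SE 0.43, edgeR adjusted p = 0.00642). Without Fibrotic replicate 4 the Fibrotic mean was 7.23 ± 1.74 CPM (SD, n = 5) and the Marco log2 fold change 1.04 (adjusted p = 0.00207).
The Marco call was near the threshold on p. Dropping 1 library at a time ended it in 6 of 12 fits, and the Marco log2 fold change then had an adjusted p of 0.0131 for FLO replicate 3, the library that goes against its sex label. The others dropped Fibrotic replicate 5 (0.0105) or FLO replicate 1 (0.0103), 4 (0.0127), 5 (0.0149) or 6 (0.0137). Counting every member whose groups did not overlap gives 2 of 7 higher, where 15.3% of all tested genes were higher without overlap and 30.4% higher or lower.

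Vsig4 is a receptor for complement C3 fragments on bacteria. Fibrotic livers ranged over 20.2 to 37.95 CPM (median 25.3), and FLO livers over 12.8 to 20.2 CPM (median 16.3). The groups met at 20.2 CPM, where Fibrotic replicate 2 fell just below FLO replicate 3. The log2 fold change was 0.74 (SE 0.16, edgeR adjusted p = 0.00110), or 1.67-fold. This call remained in all 12 fits that left out a library, with log2 fold changes from 0.63 to 0.81.

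Cd5l is a secreted scavenger receptor cysteine-rich protein that circulates bound to immunoglobulin M. Fibrotic libraries held 58.4 to 146 CPM of Cd5l (median 76.6) and FLO libraries 44.9 to 62.4 CPM (median 50.8). Only Fibrotic replicate 2 lay below the highest FLO library, and Fibrotic replicates 4 and 1 were the highest, at 146 and 111 CPM. The Cd5l log2 fold change was 0.79 (SE 0.19, edgeR adjusted p = 0.00287) and stayed between 0.61 and 0.89 in fits without 1 library, all of them called. Without both Fibrotic replicates 1 and 4, an alternative added after the values were seen, it was 0.46 and not called (adjusted p = 0.00278).

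Cd163 takes up complexes of haptoglobin and free hemoglobin. Fibrotic livers held 12.001 to 24.8 CPM of Cd163 (median 15.95) and FLO livers 6.40 to 14.2 CPM (median 8.96). FLO replicate 1 was above Fibrotic replicates 1 and 6, so the groups overlapped. The Cd163 log2 fold change was 0.81 (SE 0.20, edgeR adjusted p = 0.00356) and lay between 0.67 and 0.96 in fits without 1 library, all of them called. The largest adjusted p, 0.00980, came with FLO replicate 4 left out.

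The other two members were not called. Folr2, folate receptor beta, lay at 7.45 to 13.4 CPM in Fibrotic livers (median 8.20) and at 4.72 to 7.52 CPM in FLO livers (median 6.60). Of the 6 Fibrotic libraries, 5 were above all FLO libraries, and Fibrotic replicate 1 was the highest. The Folr2 log2 fold change was 0.48 (SE 0.16, edgeR adjusted p = 0.0196), which is 1.39-fold with a range of 1.12 to 1.74 at 2 SE either side. Without Fibrotic replicate 1 it was 0.34 (adjusted p = 0.0491).
Timd4 had the lowest mean level of the 7, with 54 to 75 counts per Fibrotic library and 38 to 63 per FLO library. That is 2.72 to 3.80 CPM (median 3.21) against 2.08 to 3.28 CPM (median 2.47). The groups overlapped, with 2 Fibrotic libraries above the highest FLO library. Its log2 fold change was 0.35 (SE 0.16, edgeR adjusted p = 0.0710), or 1.28-fold with a range of 1.03 to 1.58 at 2 SE either side. The 1.46-fold rise of Clec4f lies inside this range, and the 1.67-fold rise of Vsig4 lies outside it. The range of Vsig4 itself at 2 SE, 1.34 to 2.07, overlaps that of Timd4. Timd4 and Vsig4 were not tested against each other.

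Timd4 and Clec4f were set against each other in 1 test. The log2 difference of Timd4 minus Clec4f spanned -5.21 to -4.63 in Fibrotic livers and -4.95 to -4.34 in FLO livers. Its mean was 0.18 lower in Fibrotic livers (group means -4.89 and -4.71), a size that the libraries of one group also differ by (exact permutation test, two-sided, p = 0.210). Shifts from -0.48 to 0.14 were not rejected by that test at 0.05. So an unequal change of the pair was not detectable, and the interval does not show that they changed alike.

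**Figure D2:**
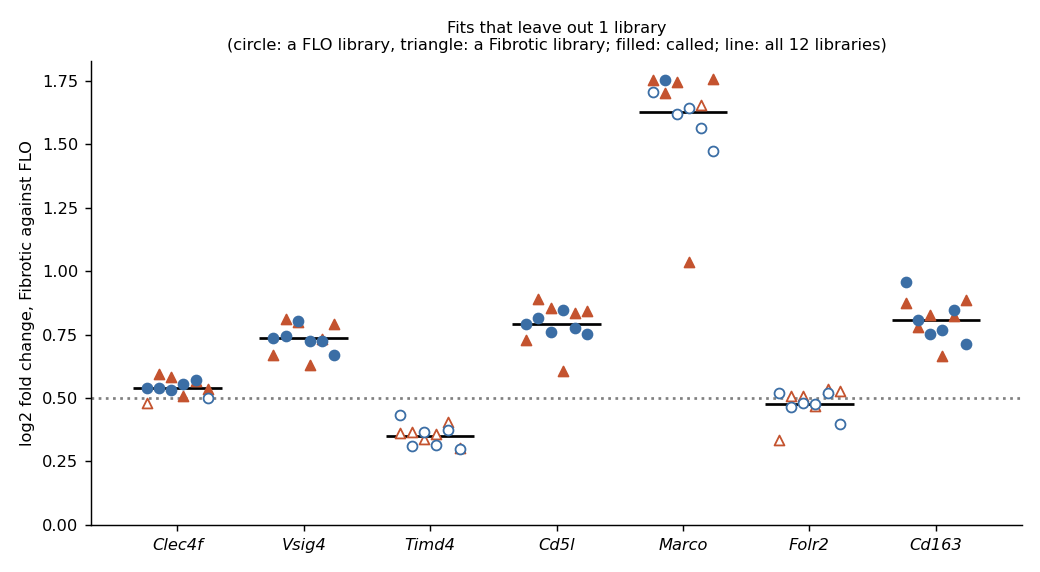
Log2 fold change of each gene (y axis, Fibrotic against FLO) when 1 of the 12 libraries is left out: circles leave out a FLO library, triangles a Fibrotic library, filled symbols are called, and the line is the value from all 12. Clec4f lies close to the fold threshold of 0.5 (dotted), from 0.48 to 0.59, Marco falls to 1.04 without Fibrotic replicate 4, and all values are above 0.

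Levels were compared between genes as CPM per kilobase of exonic sequence. In FLO livers Clec4f (27.8 ± 2.32, SD, n = 6) and Cd5l (25.5 ± 3.26) were the highest, and Clec4f was the higher in 4 of 6 libraries, so their order is not clear. Vsig4 (11.1 ± 1.62) and Folr2 (4.22 ± 0.663) followed, each apart from its neighbours in every library. Marco (1.84 ± 0.647) and Cd163 (1.74 ± 0.507) could not be ordered, with Marco higher in 3 of 6 libraries, and Timd4 (1.17 ± 0.211) was lowest in mean, below Cd163 in 6 of 6 libraries although the ranges overlapped. In Fibrotic livers Cd5l (44.2 ± 16.0) and Clec4f (40.4 ± 6.17) shared the top, each the higher in 3 of 6 libraries. Marco reached 5.68 ± 4.78 per kilobase, next to Folr2 at 5.88 ± 1.46, and lay above Cd163 (3.05 ± 0.846) in 6 of 6 libraries. Timd4 (1.496 ± 0.166) remained last.

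Variation around the group means was shared by some pairs more than others. Over 21 pairs of members, the Pearson r of deviations from the group mean (12 libraries) ran from -0.06 to 0.80, with a median of 0.38 and 9 pairs over 0.5. The pairs among Clec4f, Cd5l, Vsig4 and Folr2 lay between 0.55 and 0.80, with 0.80 for Clec4f and Cd5l, 0.80 for Vsig4 and Cd5l, 0.76 for Clec4f and Folr2 and 0.73 for Clec4f and Vsig4. Marco had an r of 0.76 with Cd163, 0.66 with Cd5l and 0.66 with Vsig4, but 0.34 with Clec4f and 0.24 with Folr2. Fibrotic replicate 4 was the highest library for Marco, Cd163, Cd5l and Vsig4, and far above the others for Marco. The r values of Marco can thus rest largely on that 1 mouse, and none is given without it. The lowest r of Cd163 was with Clec4f (0.15). Timd4 had no r over 0.39 with any other member, and it had the fewest counts summed over the 12 libraries. These are descriptions over libraries that share a liver and a depth per point.

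**Figure D3:**
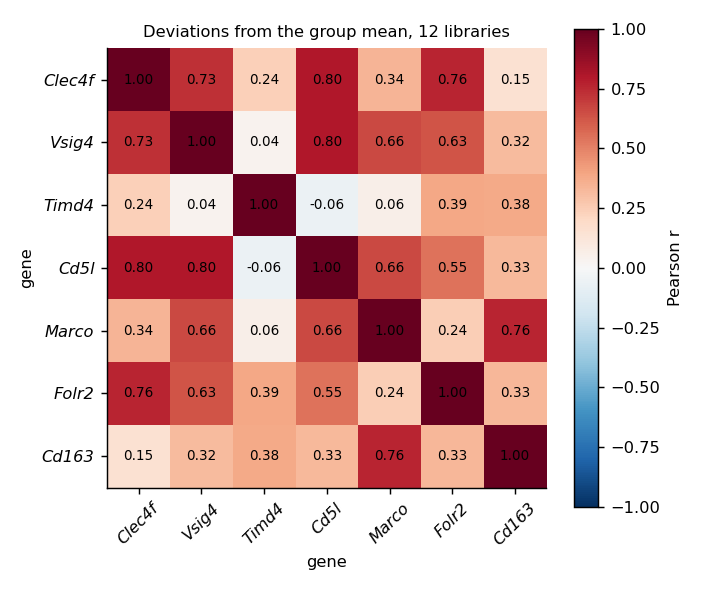
Pearson r between the 7 genes (both axes) of log2 CPM deviations from the group mean over 12 libraries, from blue (-1) to red (1). Clec4f, Vsig4, Cd5l and Folr2 are red among themselves (0.55 to 0.80), Marco reaches 0.76 with Cd163 and 0.66 with Cd5l and Vsig4, and the Timd4 row is pale. The 12 include Fibrotic replicate 4, which is far above the others for Marco.

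The genes whose deviations were most like those of Clec4f among 11198 well-expressed genes were Pole3 (r = 0.89), Hip1 (0.87), Mrtfa (0.87), Zmiz2 (0.87), Notch1 (0.86), Zap70 (0.86), Gtse1 (0.86), Fcgr1 (0.85), Slc7a8 (0.84) and Csnk1g1 (0.84). Of these 10, only Fcgr1, a macrophage Fc receptor, is also on the marker lists for macrophages, and Notch1 is on the list of niche signals. For the mean of the 7 members they were Dnm1l (r = 0.97), Il16 (0.96), Ubox5 (0.93), Klhl20 (0.93), Foxo3 (0.91), Sympk (0.90), Sf3a2 (0.90), Bap1 (0.90), Abcc2 (0.89) and Cers6 (0.89), of which 0 are on those lists. The macrophage receptors Csf1r and Adgre1 had an r of 0.80 and 0.71 with Clec4f, and the hepatocyte gene Alb -0.80. Among other genes named here, r with Clec4f was 0.57 for Id3, 0.51 for Trem2, 0.50 for Ccr2 and 0.42 for Spic. It was 0.01 for Hmox1 and -0.08 for Nr1h3. With the mean of the 7 members, r was 0.75 for Csf1r, 0.76 for Adgre1 and -0.52 for Alb. These values describe likeness over 12 libraries, and nothing is drawn from them on shared function or control.

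Genes used to mark all liver macrophages were compared next, to see whether the members moved with such markers as a set. Whether other liver cells added to the levels of these markers was not tested. Of 18 such markers, all tested, 9 were called higher and 0 lower, beside 15.9% and 14.0% of all tested genes. Their median log2 fold change was 0.66, with 18 of 18 above 0. Cd14, a coreceptor for bacterial lipopolysaccharide, rose most, from 5.79 ± 2.81 to 19.1 ± 4.89 CPM (SD, n = 6 each, log2 fold change 1.72). Mpeg1, a pore-forming protein of phagocytes, rose by 0.99, and Adgre1, the adhesion receptor used most often to mark mouse macrophages, by 0.81. Csf1r, the receptor that macrophages need to survive, rose from 44.6 ± 2.62 to 77.5 ± 26.4 CPM (SD, n = 6 each, log2 fold change 0.80, edgeR adjusted p = 0.00136). Mertk, a receptor for dead cells, was at 16.1 ± 2.58 CPM in Fibrotic and 15.4 ± 1.37 CPM in FLO livers (SD, n = 6 each, log2 fold change 0.06, adjusted p = 0.656). The summed level of the 18 markers was 439 to 926 CPM in Fibrotic livers and 336 to 429 CPM in FLO livers. On their mean log2 CPM, Fibrotic replicate 2 (3.89) lay below FLO replicates 2, 4, 5 and 6 (3.97, 3.92, 4.03 and 4.04). The other Fibrotic libraries lay above every FLO library on that scale.

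Relative to the mean log2 CPM of these 18 markers in the same library, 0 of the 7 members separated the groups, while 25.4% of all tested genes did so in either direction and 2.01% as higher in Fibrotic. The mean difference (Fibrotic minus FLO, log2) was -0.06 for Clec4f, 0.11 for Vsig4, 0.14 for Cd5l, 0.21 for Cd163, -0.14 for Folr2, -0.24 for Timd4 and 0.81 for Marco. Marco thus had the largest difference on this scale, with group means of -1.29 ± 0.73 and -2.09 ± 0.68 (SD, n = 6 each) whose libraries overlapped. Against Adgre1 and Csf1r alone, the same difference was 0.66 for Marco, -0.21 for Clec4f and -0.39 for Timd4, and it turned to -0.04 for Vsig4 and -0.01 for Cd5l. No test was made on this scale.

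**Figure D4:**
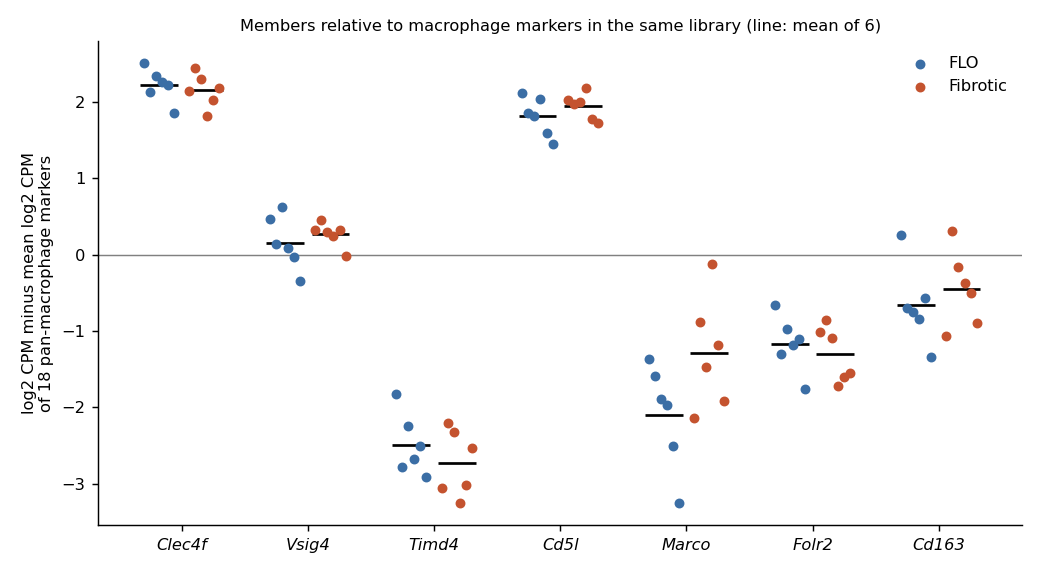
Each gene's log2 CPM minus the mean log2 CPM of 18 pan-macrophage markers in the same library (y axis), for 6 FLO and 6 Fibrotic libraries, 1 point per library with a line at the mean. The groups overlap for all 7 genes, and the means are farthest apart for Marco, at -2.09 and -1.29.

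A further 12 genes that are enriched in Kupffer cells among macrophages, several of them shared with hepatocytes or platelets, went both ways. Of these, 5 were called higher and 2 lower, beside 15.9% and 14.0% of all tested genes, with a median log2 fold change of 0.48. Il18bp, which binds interleukin 18, rose by 1.05 on the log2 scale, and Slc11a1, a metal transporter of phagosomes, by 0.90. Cfp, which encodes properdin, rose by 0.55 and Fcna, which encodes ficolin A, rose from 22.0 ± 2.56 to 32.0 ± 2.97 CPM (SD, n = 6 each, log2 fold change 0.54). Pltp, the phospholipid transfer protein, fell from 148 ± 31.0 to 39.8 ± 6.10 CPM (SD, n = 6 each, log2 fold change -1.89), and Hpgd, which inactivates prostaglandins, changed by -0.79. Hepatocytes also express Pltp and Il18bp. Without FLO replicate 6, 3 of the 12 were called higher in place of 5.

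**Figure D5:**
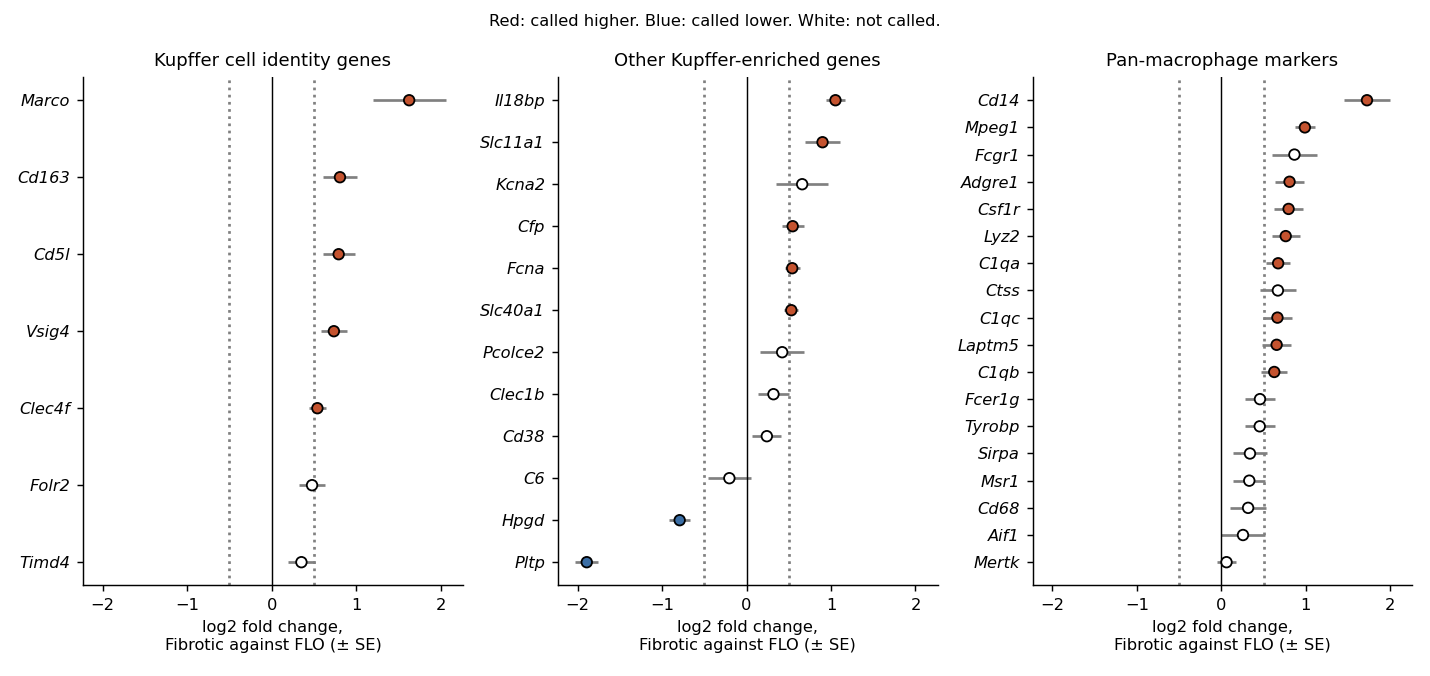
Log2 fold change (x axis, Fibrotic against FLO, ± SE) of the 7 Kupffer cell identity genes, 12 other Kupffer-enriched genes and 18 pan-macrophage markers, with dotted lines at 0.5 either side of 0. Members lie from 0.35 (Timd4) to 1.63 (Marco), the second panel holds Pltp and Hpgd below 0, and all 18 macrophage markers lie above 0.

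Transcription factors that set up the Kupffer cell program were mostly not called, as was true of most tested genes. Of 12, 2 were called higher and 0 lower (15.9% and 14.0% of all tested genes), with a median log2 fold change of 0.21. Id1, an inhibitor of differentiation that responds to bone morphogenetic proteins, rose from 11.3 ± 1.92 to 32.0 ± 19.6 CPM (SD, n = 6 each, log2 fold change 1.498, edgeR adjusted p = 0.00255). Which cells of the liver carried the rise of Id1 was not tested. Irf8 rose by 0.58, but this call was lost in 5 of the 12 fits without 1 library. Id3, which Kupffer cells need, was at 0.60 (adjusted p = 0.0474), and Spic, a factor of macrophages that recycle heme, at 0.31 (0.522). Nr1h3, which encodes LXR alpha and is also expressed in hepatocytes, was at 98.1 ± 10.7 CPM in Fibrotic and 108 ± 8.10 CPM in FLO livers (SD, n = 6 each, log2 fold change -0.14, adjusted p = 0.199).

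Ligands and receptors of the Kupffer cell niche gave 3 genes called higher and 1 lower of 13 tested, with a median log2 fold change of 0.09. The shares over all tested genes were 15.9% higher and 14.0% lower. Csf1, which encodes macrophage colony stimulating factor, rose from 9.38 ± 1.71 to 19.0 ± 5.72 CPM (SD, n = 6 each, log2 fold change 1.02, edgeR adjusted p = 0.000366). Il34, the other ligand of the same receptor, was at 4.39 ± 0.920 CPM in Fibrotic and 3.88 ± 0.883 CPM in FLO livers (SD, n = 6 each, adjusted p = 0.414). The receptor Tgfbr2 rose from 66.2 ± 12.1 to 132 ± 20.6 CPM (SD, n = 6 each), Notch1 rose by 0.77 on the log2 scale, and the Notch ligand Dll1 fell from 5.25 ± 0.824 to 1.68 ± 0.503 CPM (SD, n = 6 each, log2 fold change -1.64). These 3 higher calls held in each of the fits without 1 library. Csf2 had no count in any library.

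Several genes whose products meet those of the members were also measured. Their counts stand beside 15.9% of all tested genes called higher and 14.0% called lower. For Cd163, 5 of 12 genes of hemoglobin and heme handling were called higher and 2 lower (median log2 fold change 0.28). Hpx, the heme carrier hemopexin, rose by 1.02, Hmox1, which degrades heme, rose from 27.9 ± 7.85 to 46.1 ± 11.4 CPM (SD, n = 6 each, log2 fold change 0.72), and the ferritin gene Ftl1 by 0.73. Hp, which encodes haptoglobin, was at 0.22 (adjusted p = 0.411), and the heme transporter Slc48a1 and the biliverdin reductase gene Blvra were lower (-0.57 and -0.51).
For Vsig4, its ligand gene C3 was at 0.17 (adjusted p = 0.268), while Cfi, a protease that cleaves activated C3, fell by 0.74 on the log2 scale, and Cr1l, a regulator of complement on cell surfaces, fell by 0.62. Of the complement genes tested, 0 were called higher. For Folr2, the folate transporter genes Slc46a1 and Slc19a1 were at -0.03 and 0.03 (adjusted p = 0.806 and 0.859), and Ggh, which trims folate in lysosomes, rose by 0.76 as the 1 gene called of 4 tested (median 0.00354).
For Timd4 and Marco, genes for clearance of dead cells and modified ligands were counted beside the same shares of all tested genes (15.9% and 14.0%). Of 11 tested, 2 were called higher and 0 lower (median 0.06). They were Axl, a receptor for dead cells (0.80), and Mfge8, a bridge to them (0.81), of which Mfge8 lost its call in 7 of the 12 fits without 1 library. Ighm, the heavy chain of the immunoglobulin M that Cd5l binds, rose from 7.95 ± 2.90 to 22.1 ± 9.03 CPM (SD, n = 6 each, log2 fold change 1.47, edgeR adjusted p = 0.000979).

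Markers of other cells moved as well, and their part in the members' values was not tested. The counts below stand beside 15.9% of all tested genes called higher and 14.0% called lower. Of 15 markers of monocytes and of recruited or lipid-associated macrophages, 11 were tested, with 3 called higher and 0 lower (median 0.48). Summed, they reached 119 to 340 CPM in Fibrotic livers and 76.8 to 157 CPM in FLO livers, and most of it was Spp1, which cholangiocytes also express. Cx3cr1, a chemokine receptor of monocytes, rose from 0.751 ± 0.304 to 1.95 ± 1.06 CPM (SD, n = 6 each, log2 fold change 1.36), Spp1 by 1.01 and Cd9 by 0.87. The calls of Cx3cr1 and Spp1 were lost in 8 and 9 of the 12 fits without 1 library. Ccr2, the receptor by which monocytes leave the marrow, was at 1.96 ± 0.830 CPM in Fibrotic and 1.44 ± 0.571 CPM in FLO livers (SD, n = 6 each, adjusted p = 0.279), and Trem2 at 3.45 ± 1.63 and 1.72 ± 0.864 CPM in the same order (log2 fold change 1.01, adjusted p = 0.0451).
Sinusoidal endothelial markers gave 0 called higher and 1 lower of 10 (median -0.28, 10 of 10 below 0), and their sum was 238 to 286 CPM in Fibrotic livers and 309 to 356 CPM in FLO livers. Kdr, the main receptor for vascular endothelial growth factor, was the one called (-0.58). Hepatocyte markers gave 1 called higher (Cps1) and 2 lower (Apoa1 and Serpina1c) of 10 (median -0.11), with sums of 56770 to 96706 CPM in Fibrotic and 80616 to 96960 CPM in FLO libraries. Stellate cell markers gave 1 called higher (Lrat) of 10 (median 0.09, sums of 264 to 481 and 252 to 385 CPM), and cholangiocyte markers 4 higher of 7 tested (median 1.17, sums of 118 to 346 and 61.8 to 107 CPM).
Lymphocyte markers were low, with 4 of 11 tested, 1 called higher (Ighm, which made up most of the sum), a median of 0.12 and sums of 13.7 to 39.4 and 8.15 to 16.4 CPM. Neutrophil markers summed to 3.34 to 8.98 CPM in Fibrotic and 2.24 to 6.35 CPM in FLO libraries, with 1 of 2 tested called higher (Csf3r, median 0.52). Platelet markers gave 2 called higher of 4 tested (Itgb3 and Itga2b, median 0.55, sums of 21.5 to 29.3 and 13.99 to 19.96 CPM). Peritoneal macrophage markers, which matter because those cells share Timd4, gave 1 called higher (Saa3) and 1 lower (Icam2) of 4 tested (median 0.08, sums of 44.5 to 63.2 and 41.8 to 52.5 CPM), with their defining factor Gata6 at -0.11 (adjusted p = 0.467). Most of the sum was Prg4, with means of 34.1 CPM in Fibrotic and 28.3 CPM in FLO livers. Alox15 averaged 0.0489 and 0.226 CPM in the same order and was too low to test. Whether these counts came from peritoneal macrophages was not tested. Proliferation markers gave 4 called lower and 0 higher of 8 (median -0.97), led by Ccnb1 (-2.47) and Birc5 (-1.65), with sums of 26.4 to 39.4 and 45.2 to 59.9 CPM.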

How the data were processed

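Poly(A) RNA from the livers of 12 ob/ob mice was sequenced. The authors deposited raw whole-number counts per Ensembl gene, 1 column per mouse, not normalized. The submitters' processing notes name bcl2fastq, STAR 2.7.3a and mm10, and the study's methods name PISCES. The mouse annotation and strand setting are not given in the sources used here. Symbols were matched for 51745 of 56205 identifiers, and those without one held 0.0587% of counts. Libraries held 17815568 to 24814263 counts, and SDs between them include counting error.

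Counts were tested in R 4.3.3 with edgeR 4.0.16 (robust quasi-likelihood fit, TMM, filterByExpr, Benjamini-Hochberg adjustment over all 13416 tested genes). The SE is the absolute log2 fold change divided by the square root of F. Log2 CPM used a prior count of 2. Within a group, libraries differed by a chi-square of at least 10.9 per degree of freedom. Alternatives were other normalizations, filters, thresholds, DESeq2 1.42.0, limma-voom (limma 3.58.1), a replicate block and leaving out each library. The test code was checked on simulated counts. Of the gene lists, named were up to 4 called genes per direction and a few fixed genes. After values were seen, Gm10602, Mertk, Il34, C3, Slc46a1, Slc19a1, Gata6, Csf2, Alb, Prg4 and Alox15 were named too. The genes most like the members were the 10 with the highest r among genes whose log2 CPM averaged 1 or more. The members and lists were chosen with earlier results of these data known. Promoters are from RefSeq (GRCm38.p6), where all 7 members matched, 1 of them with a second window inside the gene. A result on 1 listed gene is not reported here.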

Additional observations from a re-analysis of the deposited data

Results flagged for a closer look

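Within each group of 6 libraries, the distance from the highest or lowest library to the next was taken as a ratio to the span of all 6, and a library whose ratio was over the 95% critical value of the Dixon test was taken as far from the others. Of 52 groups of values examined, 4 passed, where chance gives about 2.6. Marco was highest in Fibrotic replicate 4 (ratio 0.673, log2 CPM 4.88 against 3.33 in the next library). The mean log2 CPM of the heme handling genes was lowest in the same library (ratio 0.633, 8.12 against 8.29). The mean of the complement genes around Vsig4 was highest in FLO replicate 4 (ratio 0.673, 6.83 against 6.66) and lowest in Fibrotic replicate 3 (ratio 0.684, 5.70 against 6.09).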

How the results depend on the processing

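The number of members called higher was 5 and stayed between 3 and 6 under every alternative but the fold threshold of 1, which left 1 (Marco). It was 3 without both Fibrotic replicates 1 and 4 (chosen after seeing the data), 3 to 5 in fits without 1 library (3 without FLO replicate 6), and 0 members were called lower in any. All 7 log2 fold changes were positive in all 24 fits. The Marco log2 fold change lost its call without the low-count filter (adjusted p = 0.0259) and by limma-voom (0.0107), and kept it by DESeq2 (0.00155). On library totals alone (chosen after seeing the data) the median of all genes moved from 0.03 to 0.20, 71.8% of called genes were higher in place of 53.3%, and Folr2 was called (0.66). Replicate numbers did not pair the libraries (correlations of deviations from -0.16 to 0.10), and with a replicate block 5 members were called, as without it, while transcription factors called higher went from 2 to 1 and recruited macrophage markers from 3 to 1.

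Of other Kupffer-enriched genes, 1 was called at a fold threshold of 1 and 3 to 5 without 1 library. Of transcription factors, 1 was called without the low-count filter, 1 at a fold threshold of 1 and 1 to 2 without 1 library. Of pan-macrophage markers, 1 was called at a fold threshold of 1 and 7 to 12 without 1 library. Of recruited macrophage markers, 5 were called at an adjusted p of 0.05 with no fold threshold and 1 to 4 without 1 library. Of clearance genes, 1 was called without the low-count filter, 0 at a fold threshold of 1 and 1 to 2 without 1 library. The cause of these changes was not tested. The niche signals called higher stayed at 3 in fits without 1 library, and the difference of Timd4 minus Clec4f ran from -0.23 to -0.11. Timd4 rested on 38 to 75 counts per library and Marco on 32 to 629.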
